A study of Mus musculus with 12 samples.

Results

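The genes of angiotensin and endothelin signalling were examined in whole hearts of mice at postnatal day 8. The 9 listed genes were Agt, Ace, Agtr1a, Agtr1b, Agtr2, Edn1, Ece1, Ednra and Ednrb, and they were found by matching these symbols, in any case, to the platform annotation of the probes. A named probe was found for 8 of the 9, among 17742 named genes in all, and Ednra was not analysed here. Agt had 2 probes and the other 7 genes had 1 each, and the brighter probe of Agt, by its mean over all arrays, stands for that gene.

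The study asked which genes depend on the Hippo pathway in the neonatal heart. Hearts carrying a conditional mutation of Salvador (Salv CKO), the scaffold protein of the Hippo kinases, were set against hearts that the labels call control and wild-type. Both groups were on a C57bl/6 X 129 hybrid background. There were 2 biological samples in each group, numbered 1 and 2, and each was hybridised to 3 technical arrays, 12 in all. The labels used here name neither the Cre driver nor the deleted part of the gene, nor say if hearts were pooled. One label calls the tissue embryonic, while the stage and extraction labels give postnatal day 8. The arrays of a sample count as 1 replicate, and since nothing says that the samples came from separate litters, a p-value speaks only of the spread among these 4.

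Angiotensinogen, the product of Agt, is cut by renin and then by the angiotensin-converting enzyme Ace to give angiotensin II, which acts on type 1 receptors (Agtr1a and Agtr1b in rodents) and on the type 2 receptor (Agtr2). Endothelin-1, the product of Edn1, is released from its precursor by the endothelin-converting enzyme Ece1 and acts on the receptors Ednra and Ednrb. Both peptides constrict vessels and are known as growth signals for heart muscle cells, and in the heart endothelial cells carry much of the Ace, Ece1 and Edn1.

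The sequences just before the start of 3 of these genes are shown, Edn1 because it carries the letters bound by TEAD factors, the DNA-binding partners of the Hippo effectors Yap1 and Wwtr1, and Ace and Ece1 because their levels moved together over the arrays, as described below. They are the 250 bases before the first annotated start of each gene, from RefSeq on GRCm38.p6, 5′ to 3′ on the gene's strand, which is the plus strand for all 3. Capitals mark 3 motifs, read on both strands. CATTCC is the letters bound by TEAD factors. GGGCGG is the GC box, whose matches can overlap each other. TATAAA is the TATA box. Edn1 is at chr13:42301226-42301475, Ace at chr11:105967698-105967947 and Ece1 at chr4:137861987-137862236.
Edn1: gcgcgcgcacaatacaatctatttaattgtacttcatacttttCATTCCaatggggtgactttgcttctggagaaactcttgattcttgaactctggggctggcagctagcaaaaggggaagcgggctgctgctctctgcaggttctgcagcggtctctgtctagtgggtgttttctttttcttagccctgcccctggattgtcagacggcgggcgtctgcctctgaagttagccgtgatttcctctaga
Ace: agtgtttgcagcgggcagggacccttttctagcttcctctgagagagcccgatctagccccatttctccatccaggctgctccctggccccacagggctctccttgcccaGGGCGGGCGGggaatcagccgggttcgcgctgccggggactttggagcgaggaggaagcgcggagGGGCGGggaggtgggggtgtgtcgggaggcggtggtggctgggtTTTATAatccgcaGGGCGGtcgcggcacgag
Ece1: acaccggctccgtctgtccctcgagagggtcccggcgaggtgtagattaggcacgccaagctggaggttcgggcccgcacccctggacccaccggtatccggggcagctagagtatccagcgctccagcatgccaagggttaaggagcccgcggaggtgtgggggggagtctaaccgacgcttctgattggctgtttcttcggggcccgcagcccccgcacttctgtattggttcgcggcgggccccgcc
Such a window was found for 8 of the 9 genes, all but Agtr1a. CATTCC stood in 1 of these 8, that of Edn1, where it begins at position -207 from the start. It stood in 12.6% of the 27025 windows of this length over all genes. The GC box was in 1 of 8, that of Ace, against 33.0% of all windows, and the TATA box in 3 of 8, those of Ace, Agt and Agtr1b, against 13.0%. In Ace the match begins at position -31 and reads TTTATA, which is TATAAA on the opposite strand. In Agt and Agtr1b it is on the gene's strand. The window of Ece1 held none of the 3 motifs. These are matches of letters, and no binding was measured.

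The deposited values are intensities, the brightness of a probe on a linear scale. Levels here are log2(intensity + 1) after the 12 arrays were brought to a common distribution (quantile normalization), and the level of a sample is the mean of its 3 arrays. On this scale the differences of dim probes come out smaller than they are. Array medians ran from 58 to 88 in the deposited values. Sav1, the targeted gene, stood at 8.75 and 8.08 in the 2 controls and at 8.06 and 8.52 in the 2 libraries labelled Salv CKO. It thus did not follow the labels, and every direction below is that of the labels only. If its probe lies outside the deleted part, which the labels do not tell, it checks nothing. Of the defining markers of heart muscle, Tnnt2, Actc1 and Tnni3 were measured, with levels from 14.99 to 15.62 in all 4 samples. Endothelial markers were all present, 7 of 7 with a probe. The median SD over all probes was 0.270 between samples of a group, taken from means of 3 arrays, and 0.191 between single arrays of a sample. The SD between samples was the larger for 56.3% of all probes.

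None of the 8 genes passed the test of Salv CKO labels against control labels (limma, adjusted p from 0.999 to 1). Over the whole array 0 of 26423 probes passed an adjusted p of 0.05 (0%), while 1047 (3.96%) had an unadjusted p under 0.05. A fit of all 12 arrays with the sample as a random block called 61. That fit took a common correlation among the arrays of a sample for all probes, so its precision rests in part on technical arrays. Of the 8 genes, 0 had an unadjusted p under 0.05 in the main test, with 1.95% of all probes passing it as higher in Salv CKO and 2.01% as lower. In the 12-array fit 1 of the 8 did, Agtr2 (limma, unadjusted p = 0.04, adjusted p = 0.56). The 2 groups did not overlap for 1 of the 8, Agtr2, against 30.6% of all probes. The differences, Salv CKO minus control, were positive for 5 genes and negative for 3, with a median of 0.081, against -0.010 over all probes. The 5 and the median include Edn1, which could not be read as a level, as described below. The spread that stood out was between samples of the same group, as the plot of all 12 arrays shows.

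**Figure D1:**
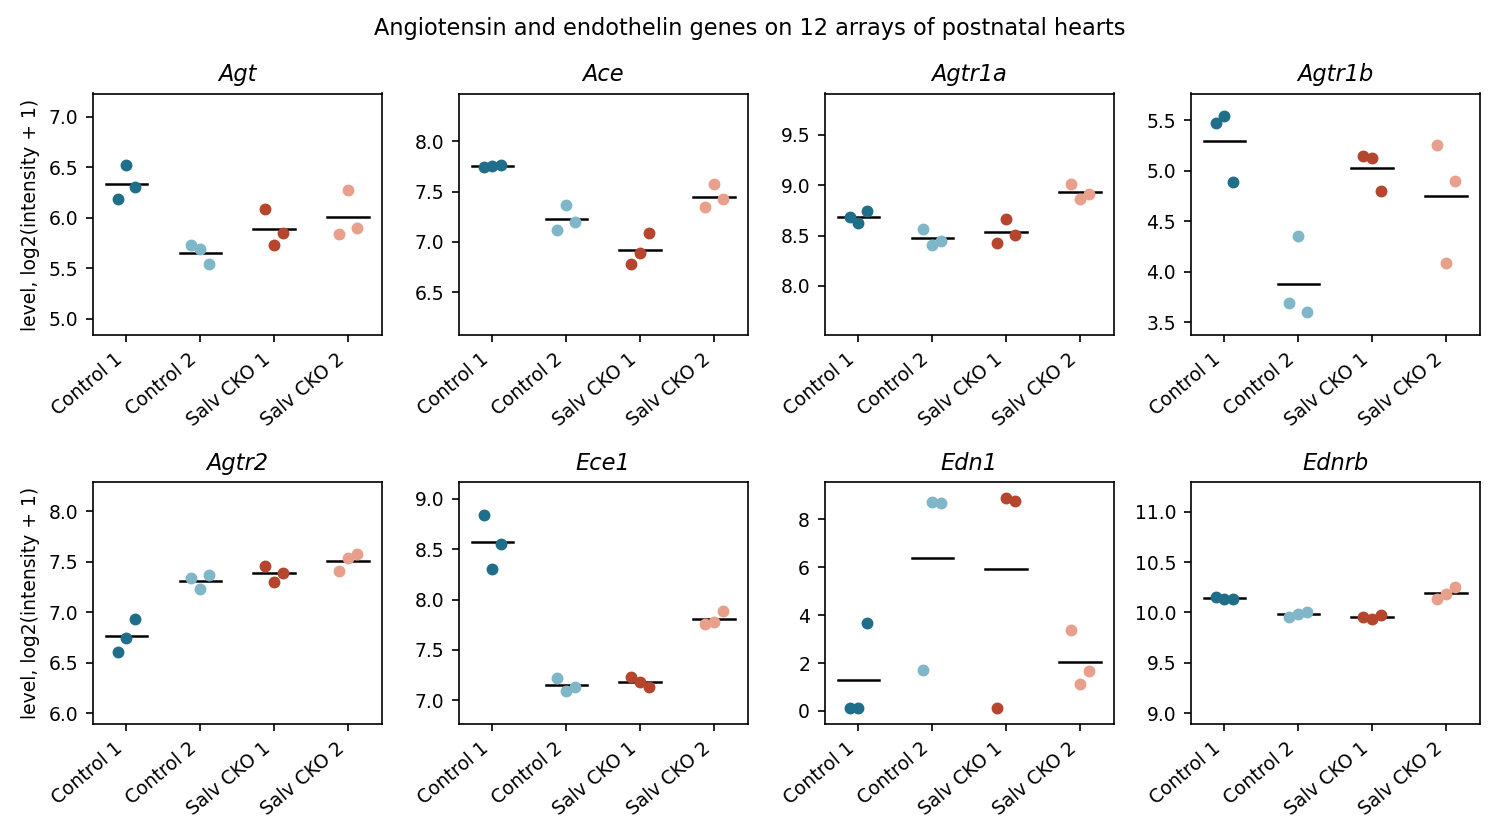
Level of each gene, log2(intensity + 1) after quantile normalization, on the 3 technical arrays (points) of each sample, with the mean of the arrays as a line; each panel has its own scale. Control 1 is the highest sample for Ace, Agt, Agtr1b and Ece1 and the lowest for Agtr2, and the arrays of Edn1 part within Control 2 and Salv CKO 1.

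Agt, which encodes the precursor of angiotensin, was slightly dimmer than the median probe. Its brighter probe stood at 6.34 in Control 1 and 5.65 in Control 2, and at 5.89 and 6.01 in the Salv CKO samples. The controls thus lay at both ends and the Salv CKO samples between them. The difference was -0.049 ± 0.31 (SE, n = 2 per group), with a 95% interval from -0.86 to 0.76. Deposited intensities of this probe ran from 42 to 77 over the arrays, and the normalized arrays of each sample overlapped those of its neighbour in the order. The other, dimmer probe of Agt, with sample means of 32.3 to 47 in the deposited intensities, gave a difference of 0.17, so the 2 probes disagreed in sign. At this dimmer probe the groups did not overlap, with controls at 5.19 and 5.13 and Salv CKO samples at 5.23 and 5.43. Its SD between arrays of a sample was 0.34. Brown fat and liver are known to express Agt. The brown fat gene Ucp1 stood at 12.71 and 11.74 in the controls and at 11.95 and 9.75 in the Salv CKO samples. The groups did not overlap for 5 of the 7 measured brown fat and adipocyte markers, 4 of them lower in Salv CKO and 1 higher, against 30.6% of all probes. The summed normalized intensity of the 7 was 23768 and 18640 in the controls against 17987 and 13748. Ucp1 and the brighter Agt probe were both highest in Control 1, while Ucp1 was lowest in Salv CKO 2 and Agt in Control 2. The 4 measured of 5 liver markers summed to a normalized intensity of 216 to 314. Their deposited sample means were 137 to 173 for Ttr, 49.3 to 118 for Apoa1, 8.67 to 10.3 for Apob and 4 to 10.3 for Alb. Whether either tissue added to the Agt level was not tested.

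Ace, the converting enzyme, parted the samples more clearly than the groups. The controls stood at 7.76 and 7.23 and the Salv CKO samples at 6.92 and 7.45. Control 1 was the highest and Salv CKO 1 the lowest, and the groups overlapped. Only the arrays of Salv CKO 2 and Control 2, neighbours in the order, overlapped, so that 5 of the 6 pairs of samples were apart on every array. The group difference was -0.31 ± 0.32 (SE), with an interval from -1.15 to 0.54. Without Salv CKO 1 it was -0.043, without Control 1 it was also -0.043, and without Control 2 it was -0.57. The 2 controls alone differed by 0.53, and the Salv CKO samples by -0.53 (sample 1 minus sample 2).

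Among the angiotensin receptors, Agtr2, the type 2 receptor, which is known for its high expression before birth and its fall afterwards, was the gene whose groups did not overlap. Its probe read 103, 92 and 108 on the arrays of Control 1 and 155, 125 and 165 on those of Control 2. For Salv CKO 1 the readings were 163, 163 and 147, and for Salv CKO 2 they were 197, 193 and 240. Normalized, the controls stood at 6.76 and 7.31 and the Salv CKO samples at 7.39 and 7.50. Control 1 was low on all its arrays, and the arrays of the other 3 samples overlapped their neighbours in the order. The difference was 0.41 ± 0.28 (SE, limma, adjusted p = 0.999), with an interval from -0.32 to 1.14. Without Control 1 it was 0.13, without Control 2 it was 0.69, and with each array centred on its median the groups overlapped.

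Agtr1a, the main type 1 receptor of the rodent heart, had levels of 8.68 and 8.47 in the controls and of 8.53 and 8.93 in the Salv CKO samples. Salv CKO 2 was the highest, apart from Control 1 on every array, while the arrays of the other 3 samples overlapped their neighbours. The difference was 0.15 ± 0.25 (SE), with an interval from -0.51 to 0.82, and it was -0.044 without Salv CKO 2. Agtr1b, the second type 1 receptor gene of rodents, was dim, at intensities from 11 to 46. The controls stood at 5.30 and 3.88, the latter at 11, 14 and 11 on its arrays, and the Salv CKO samples at 5.02 and 4.75. The arrays of Agtr1b spread by an SD of 0.42 within a sample, and its difference was 0.29 ± 0.52 (SE), or -0.40 without Control 2 and 1.02 without Control 1. The 2 type 1 receptor genes are close paralogs, and whether either probe also reads the other transcript was not tested.

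Edn1, the endothelin-1 precursor, could not be read as a level. Before normalization its probe read 2, 358 and 391 on the 3 arrays of Control 2, and -5, 443 and 351 for Salv CKO 1. It read -3, 0 and 10 for Control 1, and 10, 1 and 3 for Salv CKO 2. In 1 sample of each group the probe was thus bright on 2 of 3 arrays and at background on the remaining one, and in the other sample of each group it was at background on all 3. The group difference of 0.15 ± 2.11 (SE) ran from -5.42 to 5.72 in its interval. A gap of this kind, from 20 or less to 300 or more between arrays of 1 sample, occurred for 55 of all probes (0.208%), and in 2 or more samples for 17 (0.0643%). Edn1 was the only one of the 8 genes with such a gap.

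Other probes also parted samples without regard to the groups. Pdgfra, a fibroblast receptor, read 1497, 17 and 1610 in Control 2, 2007, 1925 and 2069 in Salv CKO 2, and at most 7 in Control 1 and Salv CKO 1. Of the other fibroblast markers, Dcn, Postn, Col1a2, Col3a1 and Tcf21 were bright in all 4 samples. Col1a1 was at background in all 4, with deposited sample means of 2.67 to 5.33. The airway gene Scgb3a2 was bright on every array of Salv CKO 1 (1239 to 1347) and Control 2 (2683 to 2809) and at most 31 in the other samples. Those are the samples in which Edn1 was bright on 2 arrays. The 6 lung markers summed to a normalized intensity of 81 and 5476 in the controls and of 2192 and 80 in the Salv CKO samples. The airway gene Scgb1a1 had deposited sample means of 2125 in Control 2 and 455 in Salv CKO 1 (641, 40 and 684 on its arrays). It stood at 12 in Control 1 and 17.7 in Salv CKO 2. The alveolar marker Sftpc was dim, at 45 and 38.7 in Control 2 and Salv CKO 1 against 23.7 and 27 in Control 1 and Salv CKO 2. Sftpb stood at 50.7 in Control 2 and 6 to 13.7 elsewhere, and Sftpa1 at 19.3 and 5 to 7. Ager went otherwise, from 10 in Control 2 to 27.3 in Salv CKO 1. Lung tissue is known to hold much Edn1, and its part in the Edn1 values was not tested.

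**Figure D2:**
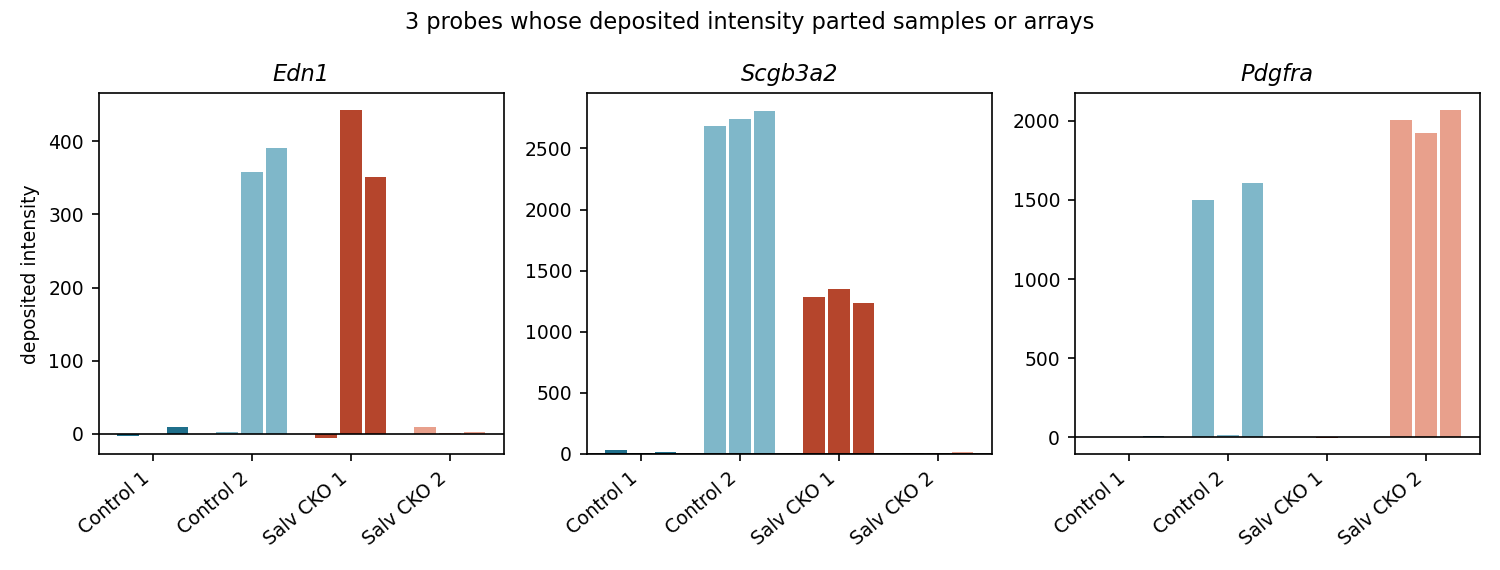
Deposited intensity (linear scale) of the probes of Edn1, the airway gene Scgb3a2 and the fibroblast gene Pdgfra on each of the 12 arrays, with 3 bars for each sample. Edn1 is bright on 2 of 3 arrays of Control 2 and of Salv CKO 1, Scgb3a2 on all 3 arrays of the same samples, and Pdgfra in Salv CKO 2 and on 2 arrays of Control 2.

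Ece1, the endothelin-converting enzyme, had the widest spread between samples of a group after Edn1. Deposited intensities were 514, 296 and 373 in Control 1 and 142, 114 and 140 in Control 2. They were 141, 151 and 124 in Salv CKO 1 and 251, 229 and 300 in Salv CKO 2. Normalized levels were 8.57 and 7.15 in the controls, against 7.18 and 7.81. The controls differed from each other by 1.42, with an SD of 0.14 between arrays of a sample, and the groups overlapped. Control 1 and Salv CKO 2 were apart from each other and from the remaining samples on every array, and those of Salv CKO 1 and Control 2 overlapped. The group difference was -0.36 ± 0.55 (SE), with an interval from -1.82 to 1.09, and its sign rested on Control 1, without which it was 0.34.

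Ednrb, the type B endothelin receptor, which endothelial cells use to take up endothelin and release nitric oxide, had the steadiest values of the 8 genes. The controls stood at 10.14 and 9.98 and the Salv CKO samples at 9.96 and 10.19. Control 1 and Salv CKO 2 were higher than the other two on every array. The difference between the groups was 0.011 ± 0.22 (SE), and the interval from -0.58 to 0.60 bounds what these 4 samples allow. The SD between arrays of a sample was 0.034.

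**Figure D3:**
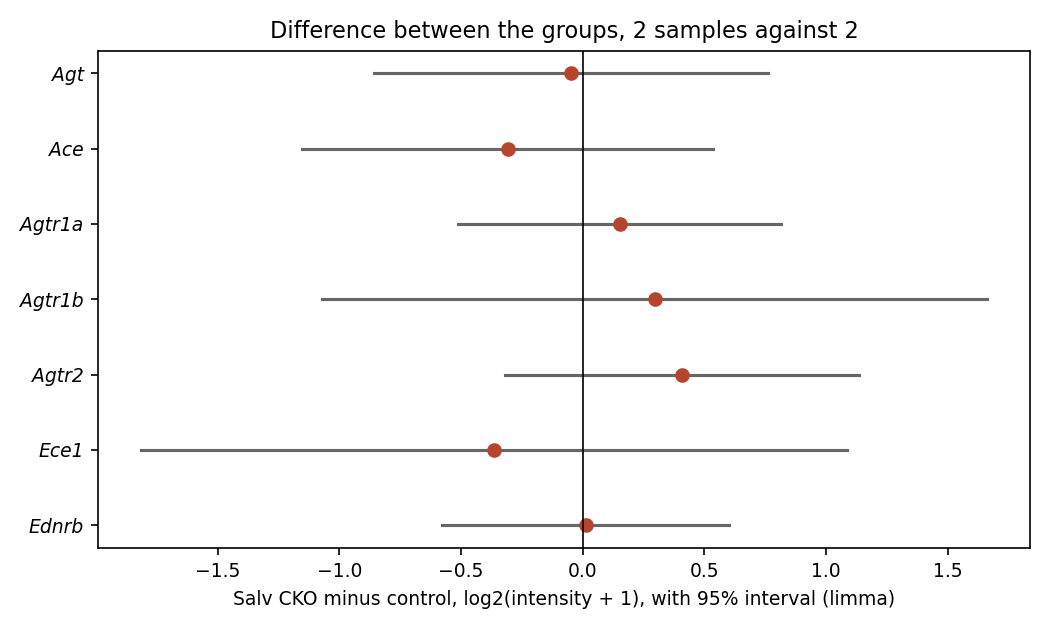
Difference between the groups (Salv CKO minus control, log2 scale) for the 7 genes other than Edn1, with 95% intervals from limma on 2 samples against 2. Every interval crosses 0, from that of Ednrb (-0.58 to 0.60) to that of Ece1 (-1.82 to 1.09).

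Control 1 was the sample farthest from the mean for 4 of the 8 genes, against 39.8% of all probes, a share near that background. It was the highest for 4 of 8 (35.8% of all probes) and the lowest for 2 of 8 (28.5%). Control 1 lay above the mean of the other 3 samples by 1.19 in Ece1, by 0.56 in Ace and by 0.49 in Agt, and its difference in Agtr2 was -0.64. Over the 12 arrays Ece1 correlated with Ace at 0.85 and with Agtr2 at -0.72, which describes 4 samples measured 3 times each.

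The endothelial markers did not move as one with these genes. Cdh5 and Kdr, the endothelial cadherin and the VEGF receptor, had Control 1 above the mean of the others by 0.58 and 0.61, and over the 12 arrays they correlated with Ece1 at 0.95 and 0.97. The correlation with Ece1 was 0.88 for Tie1, 0.062 for Egfl7, -0.23 for Tek, -0.39 for Emcn and -0.69 for Pecam1. Tie1 differed by 0.29, Egfl7 by 0.053, Tek by -0.082 and Emcn by -0.24. Pecam1, the general endothelial adhesion molecule, was lowest in Control 1, at 10.34 against 10.82 to 10.99 in the others, and its other 2 probes were lowest there too. The 7 markers summed to a normalized intensity of 31893 and 29316 in the controls and of 28969 and 30644 in the Salv CKO samples. In whole tissue fewer cells of a type and less RNA per cell cannot be told apart, and the part of endothelial content in Ece1 and Ace was not tested.

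**Figure D4:**
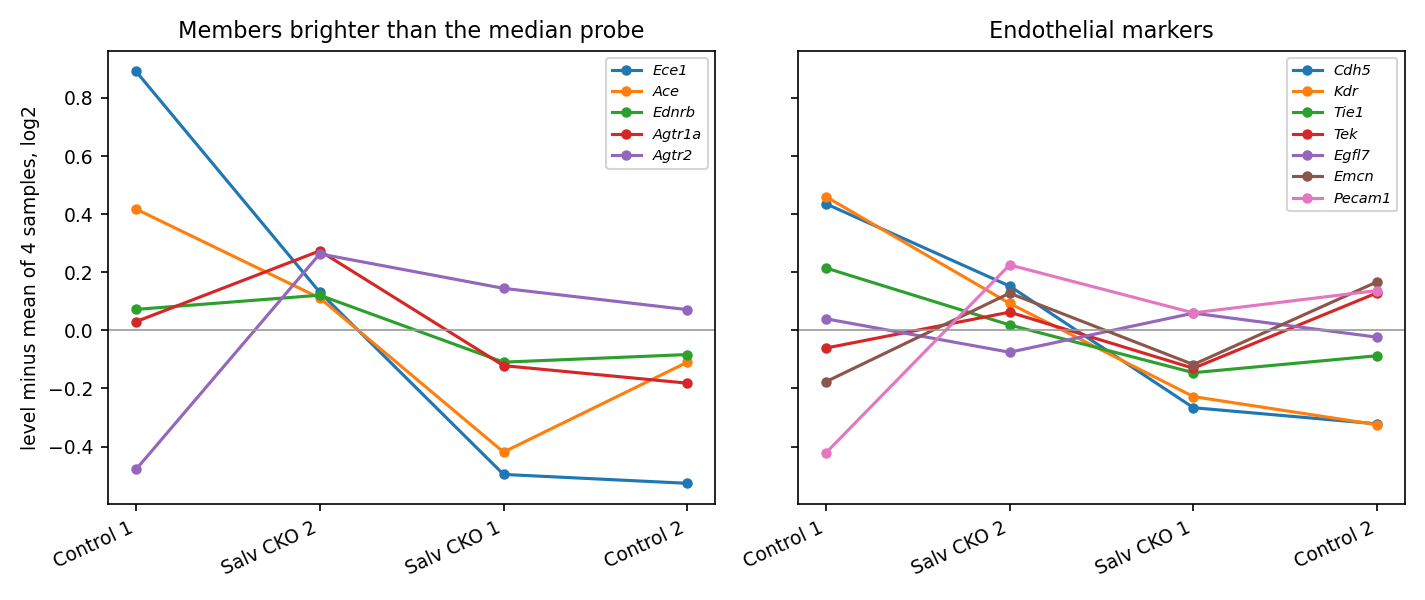
Level of each sample minus the mean of the 4 samples (log2 scale), for the 5 genes brighter than the median probe (left) and for 7 endothelial markers (right), with samples in the order of Ece1 and lines that only join the values of 1 gene. Ece1, Ace, Cdh5 and Kdr are highest in Control 1, where Agtr2 and Pecam1 are lowest.

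Genes most like each of the 5 brighter genes were sought among 10592 others, by Pearson correlation over the 12 arrays. For Ece1 they were Acin1, Zfp263 and Pom121 (0.98 each). For Ace they were Zfhx4 and Ccdc97 (0.98 each) and Dusp8 (0.97). Agtr2 was closest to Fxr1, Slc35a3 and Tpt1 (0.97, 0.97 and 0.97), each lowest in Control 1. Agtr1a was closest to Lrrk2 (0.95), Afmid (0.94) and Brd1 (0.93), and Ednrb to Rnf19b, Bard1 and Sfmbt1 (0.95 each). With 4 samples such correlations follow the order of the samples and carry no test.

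Among the other genes of both pathways, 62 of 71 listed were measured. None passed the test (limma, smallest adjusted p = 0.999), 22 stood higher and 40 lower in Salv CKO, with a median difference of -0.095. At an unadjusted p under 0.05 there were 0 higher and 2 lower, Edn3 and Rgs2, against 1.95% and 2.01% of all probes. The groups did not overlap for 22 of 62 (35.5%), near the 30.6% of all probes. Of these 22, 6 were higher and 16 lower in Salv CKO, where 14.8% of all probes parted as higher and 15.8% as lower.

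In the angiotensin list 13 of 15 genes were measured. Of these 13, 4 were higher and 9 lower, with a median difference of -0.21. Lnpep differed by -0.71 ± 0.37 (SE), Enpep by -0.46 ± 0.21 and Mme (neprilysin) by -0.45 ± 0.27, each without overlap between the groups but with sample means of at most 37.3 in the deposited intensities. Ctsg, a neutrophil protease, differed by -0.49 and was close to background, with sample means of 1 to 6. Thop1 differed by -0.23, also without overlap, at brighter sample means of 209 to 267. The groups thus did not overlap for 4 of the 13, all lower in Salv CKO. Over all probes 30.6% did not overlap, and 15.8% did so as lower. Atp6ap2, the prorenin receptor, differed by -0.34, and Agtrap, which binds the type 1 receptor, by -0.21. Cma1, the mast cell chymase, differed by 0.22, Prep by 0.13, Mas1, the receptor for angiotensin 1-7, by 0.094 and Anpep by 0.087. Prcp and Nln differed by -0.033 and -0.037.

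All 6 genes of the endothelin list were measured, 2 higher and 4 lower, with a median difference of -0.13. Edn3, the ligand that acts with Ednrb in neural crest, differed by -0.83 ± 0.21 (SE, limma, adjusted p = 0.999), the controls standing at 2.19 and 2.27 and the others at 1.43 and 1.37. Its deposited sample means were 1.67 to 4, close to background, so no change in Edn3 can be read from them. Edn2 differed by 0.45 ± 0.27 at sample means of 13.7 to 31.3. Mmel1 differed by -0.62 at sample means of 3.67 to 8.67, Ece2 by -0.14, Kel by -0.12 and Ecel1 by 0.087.

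**Figure D5:**
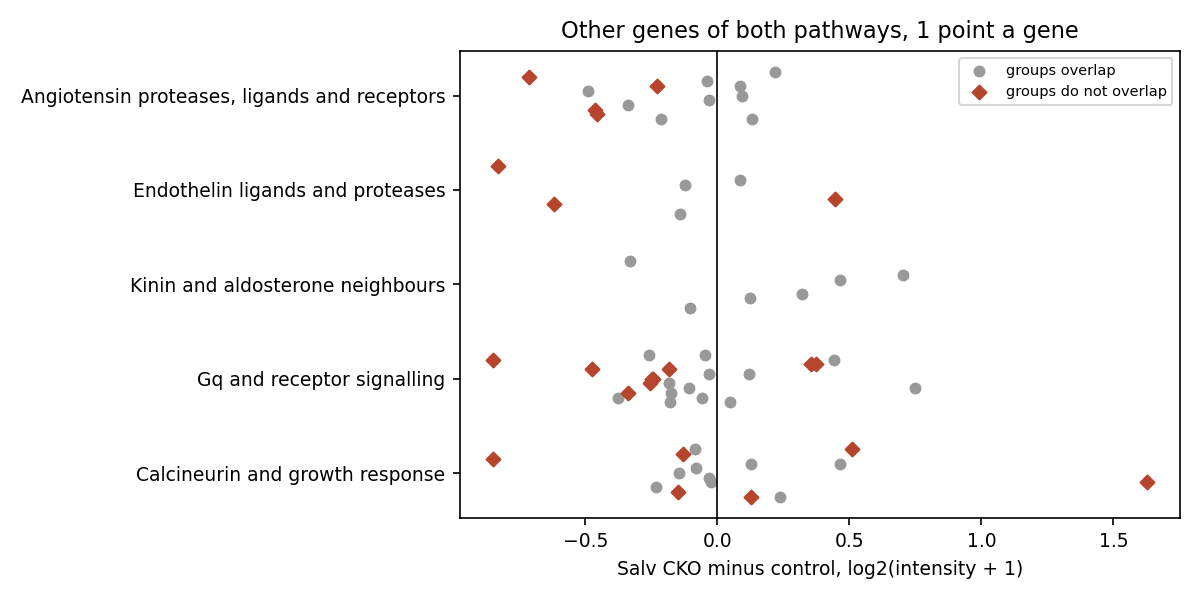
Difference between the groups (Salv CKO minus control, log2 scale) for the other measured genes of the angiotensin and endothelin pathways, 1 point a gene, by list; vertical scatter within a list only separates the points. Diamonds are genes whose groups do not overlap, 22 of 62, and none passed the test.

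Downstream of the receptors, 22 of 25 genes of Gq signalling were measured, 6 higher and 16 lower, with a median of -0.18. Rgs2, which switches off Gq and so dampens both receptors, had levels of 7.40 and 7.91 in the controls and of 6.70 and 6.92 in the Salv CKO samples. Both Salv CKO samples were below both controls, and the difference was -0.85 ± 0.27 (SE, limma, adjusted p = 0.999). The phospholipase gene Plcb3 differed by -0.47 ± 0.28, and Jak2 and Rhoa by 0.37 and 0.35, each without overlap. In the kinin and aldosterone list 6 of 8 were measured, 4 higher and 2 lower, and no gene parted the groups. Bdkrb2, the bradykinin receptor, differed by 0.70 ± 0.64, Nr3c2, the mineralocorticoid receptor, by 0.46 ± 0.47, Hsd11b2 by 0.32 and Kng1 by -0.33.

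Of the calcineurin and growth response genes, 15 of 17 were measured, 6 higher and 9 lower, with a median of -0.032. Angiotensin II and endothelin-1 are known to induce some of these genes in heart muscle cells. Nppb, the B-type natriuretic peptide, differed by -0.85 ± 0.41 (SE). The controls stood at 12.71 and 12.74 and the Salv CKO samples at 11.33 and 12.42, so that Salv CKO 1 stood apart from the other 3 samples. For Tgfb1 the difference was 0.51 ± 0.23, from 6.69 and 6.88 in the controls to 7.16 and 7.43, and both Salv CKO samples were above both controls. Spp1 differed by 1.63 ± 0.78, with a deposited sample mean of 71 in Salv CKO 2 and of 13 to 21 elsewhere. Its arrays spread by an SD of 1.43 within a sample. Fos differed by 0.46 ± 0.45.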

How the data were processed

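RNA of whole hearts was amplified, labelled with Cy5 and hybridised to 1-colour arrays, per the labels' protocols. The authors' deposited values are intensities, whole numbers from -10 to 65474 for 26423 probes. Values below 0 show a subtracted background. The labels name neither the scanner nor the background method nor any scaling. From these values the arrays were quantile normalized, values at or below 0 set to 0.0833, log2(value + 1) taken and the 3 arrays of a sample averaged. The number of samples, 2 per group, limits the precision.

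Groups were compared by limma 3.58.1 (R 4.3.3; lmFit and eBayes, two-sided, Benjamini-Hochberg over all probes, threshold 0.05), a procedure tested on simulated data. The platform annotation named 20377 of 26423 probes, with symbols updated through RefSeq of GRCm38.p6 (18213 by symbol, 2126 by synonym, 38 unmatched). Pathway genes were named by rule: all measured angiotensin and endothelin genes, the 4 with the smallest p in each other pathway list, and the 3 most correlated genes. Plcb4, Grk5, Prkca and Itpr2 were picked from their lists after their values were seen. So were the cell type markers given singly, such as Ucp1, Scgb3a2 and Pdgfra. The 9 genes and the lists were chosen with earlier results of these data known. Alternatives were a 12-array fit, a replicate block, medians of arrays, median centring, no normalization, a filter on the dimmest 50%, a pseudocount of 16, a variance trend, the mean over probes and each sample left out. Figures used matplotlib 3.10.9.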

Additional observations from a re-analysis of the deposited data

How the results depend on the processing

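None of the 8 genes and no other pathway gene passed the test in any alternative. The 0 probes called over the whole array became 61 with all 12 arrays and the sample as a random block, 10 with arrays centred on their medians and 11 without normalization, which moved the median difference of all probes to 0.11. Ace and Agtr2 kept their sign throughout, among 94 alternative values of which 13 changed sign, but with 1 sample left out Ace ran from -0.57 to -0.043 and Agtr2 from 0.13 to 0.69. With median centring Edn1 differed by -0.095 and Ednrb by -0.16, and the number of genes without overlap went from 1 to 0. Agt differed by 0.15 without normalization and by 0.060 as the mean of its probes. With 1 sample left out, differences ran from -0.39 to 0.29 for Agt, -0.044 to 0.36 for Agtr1a and -0.40 to 1.02 for Agtr1b. They ran from -2.35 to 2.68 for Edn1, -0.10 to 0.13 for Ednrb and -1.08 to 0.34 for Ece1. In these fits 3 to 6 genes had no overlap, but a group of 1 sample parts from the other group more easily. The share of all probes was not computed for these fits, so the count cannot be compared with the 1 gene of the main setting. The cause of the shifts between settings was not tested. With the replicate block 0 probes were called and 743 had an unadjusted p under 0.05, against 1047. Same-numbered samples deviated in opposite directions (r = -0.253 over probes), and a crossed pairing, chosen after seeing the data, called 0 probes.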

Other observations

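Several genes downstream of the receptors set Control 1 apart more widely than they set the groups apart, in both directions. They were picked after their values were seen, and Control 1 was the sample farthest from the mean for 39.8% of all probes. Control 1 lay below the mean of the other 3 samples in Plcb4, a phospholipase gene, where the difference was -1.85, in Nr3c2 (-1.16), in the immediate early gene Fos (-1.10), in the receptor kinase gene Grk5 (-1.05) and in Jak2 (-0.64). Nr3c2 stood at 6.76 in Control 1 and at 7.87, 7.86 and 8.04 in Salv CKO 1, Salv CKO 2 and Control 2. Other genes of the Gq list were highest in Control 1. Prkca stood there at 7.96, against 6.85 to 7.34 in the other samples, and Itpr2 at 9.59, against 8.81 to 8.93. Sav1, at 8.75 in Control 1 and 8.52 in Salv CKO 2 against 8.06 and 8.08 in Salv CKO 1 and Control 2, was higher in the same samples as Ece1.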
